A study of Mus musculus with 8 samples.

Results

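The genes described here are 10 members of the fibroblast growth factor (FGF) pathway, picked by name from the 23478 gene symbols counted in each library. They are the ligand genes Fgf7, Fgf9, Fgf10 and Fgf18, the receptor genes Fgfr1, Fgfr2 and Fgfr3, and Spry2, Dusp6 and Etv5, which are transcribed in response to FGF signalling. The 8 RNA libraries came from mouse tracheas at E13.5, an embryonic day at which tracheal cartilage and muscle form. Whole tracheas gave 1 library of genotype Wls flox/flox, ShhCre+ and 2 of genotype Wls flox/flox. Wls carries Wnt proteins to the cell surface, and Shh-Cre acts in the airway epithelium, so the tracheas of both groups hold floxed Wls in every cell and the mutant lacks it in the cells where this Cre acts. Sorted tracheal cells gave 2 libraries of Bmp4flox/flox, γSMAeGFP embryos that also carried a Cre and 3 of Bmp4flox/flox, γSMAeGFP embryos without it. Mutants and controls of the second experiment therefore share the floxed Bmp4 alleles and the muscle GFP reporter, and differ by the Cre. The sort took the cells without EPCAM and without GFP, which the labels call chondroblasts. The labels state neither which tracheal cells this Cre reached nor how many embryos stand behind a library or a group. The spread that p-values measure here may therefore be partly or wholly technical.

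FGF ligands are secreted proteins that bind receptor tyrosine kinases on the cell surface with heparan sulfate chains as a cofactor. The receptors pass the signal through RAS to the kinase ERK, and ERK raises the transcription of ETS-family factors such as ETV5 and of inhibitors such as SPRY2 and DUSP6 that dampen the same route. In the developing airway FGF10 and FGF7 are made by mesenchyme and act on epithelium through a splice form of FGFR2, FGF9 and FGF18 act mostly on mesenchymal receptor forms, and FGFR3 is known from cartilage. Counts per gene do not separate the splice forms of a receptor.

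Positions are given in build mm10 with gene spans from GENCODE M21. Among the ligands, Fgf7 spans chr2:126034658-126091185, Fgf9 chr14:58070547-58112720 and Fgf10 chr13:118669791-118792115 on the plus strand, and Fgf18 spans chr11:33117430-33147400 on the minus strand. Fgfr1 spans chr8:25513654-25575718 and Fgfr3 chr5:33721674-33737068 on the plus strand, and Fgfr2 spans chr7:130162451-133123350 on the minus strand. The span of Fgfr2 includes GENCODE transcripts that begin far upstream, and RefSeq gives chr7:130162451-130266808 for it. Of the feedback genes, Dusp6 spans chr10:99263231-99267489 on the plus strand, and Spry2 (chr14:105891947-105896819) and Etv5 (chr16:22381309-22439719) lie on the minus strand. The sequences just before the starts of the 3 feedback genes are shown because ERK acts on such genes through ETS-family factors, and because Etv5 and Spry2 lay on opposite sides of their controls in the tracheas described further on. They are RefSeq sequences of build GRCm38.p6, 5′ to 3′ on the strand of the gene, limited to bases outside the annotated gene. Capitals mark CCGGAA, a longer and stricter string than the ETS core GGAA. GGAA outside that string, as in the Dusp6 and Spry2 stretches, is neither marked nor counted.
Spry2, chr14:105896820-105897069, minus strand: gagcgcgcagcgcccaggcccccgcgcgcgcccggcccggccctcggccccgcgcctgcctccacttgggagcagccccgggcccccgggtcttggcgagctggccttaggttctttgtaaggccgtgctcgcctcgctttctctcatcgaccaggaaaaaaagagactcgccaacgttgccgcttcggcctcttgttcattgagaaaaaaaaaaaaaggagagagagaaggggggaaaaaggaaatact
Dusp6, chr10:99262981-99263230, plus strand: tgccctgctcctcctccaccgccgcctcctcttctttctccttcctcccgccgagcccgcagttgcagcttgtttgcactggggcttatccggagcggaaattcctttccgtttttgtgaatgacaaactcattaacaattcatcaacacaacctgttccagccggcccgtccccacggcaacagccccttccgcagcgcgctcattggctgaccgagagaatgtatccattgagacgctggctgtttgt
Etv5, chr16:22439720-22439820, minus strand: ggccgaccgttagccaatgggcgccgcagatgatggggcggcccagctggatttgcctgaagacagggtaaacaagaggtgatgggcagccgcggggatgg
Spry2 around the motif, chr14:105896770-105896799, minus strand: gaggtcatctatcCCGGAAtccgggagggt
The search read both strands of RefSeq windows of 300 bases, from 250 before to 50 after a start, for CCGGAA. Of the 11 windows that 9 of the 10 genes have there, 1 held it. That window belonged to Spry2, and the motif began 33 bases past the start, in the transcribed part. In all 32851 windows of the RefSeq table the share was 14.9%. A match describes the letters of a window and is not a measured binding site.

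The libraries differed in ways that bear on every value of the sorted cells. Total counts were 12964287 and 15462780 in the Bmp4 mutants, 48876948 to 55492747 in their controls and 24596836 to 31399982 in the tracheas. In the Bmp4 mutants 919 and 955 genes were without a count, against 5573 to 6080 in their controls. Genes with 0 counts in all 3 controls held on average 21.2 and 19.6 counts per kb of exon in the mutants, an even background that came to 11.2% and 8.70% of all their counts. Such silent genes of at least 1 kb spread from 0 to 3.05 times the expected value (5th to 95th percentile). The rate is 0 in the controls by this choice of genes. A sum over 1429 olfactory and vomeronasal receptor genes gave 13.8 and 14.7 counts per kb in the mutants and 0.193 to 0.274 in the controls. A gene whose mean over the 5 sorted libraries was under 3 times its expected background, taken from the silent genes, was treated as below the limit of the measurement. The lower rate would set lower limits, and Fgf9, Fgf10 and Fgf18 lay close under theirs. Erythroid markers took 10.9% of the counts of Bmp4 mutant 1 and at most 0.778% in the other sorted libraries. The sum of the cartilage markers, in CPM (counts scaled to a common library total), was 5968, 3699 and 2870 for controls 1 to 3 and 751 and 1901 for the mutants. By edgeR 7 of these 15 markers were lower and 1 was higher. Sox9 was at 171 and 536 CPM in mutants 1 and 2 and at 1796, 1011 and 710 CPM in controls 1 to 3. Col2a1 was at 96.4 and 330 CPM in the mutants and at 1408, 818 and 811 CPM in the controls. Few genes were without a count in the mutants, so a count alone does not bear out the label chondroblast there. For the smooth muscle markers the sum was 1831 and 518 CPM in mutants 1 and 2 against 268 to 315 CPM in controls, with 8 of 11 markers higher. For fibroblast and perichondrium markers it was 13130 and 16300 CPM against 6831 to 10230 CPM, with 5 of 11 markers higher. In the same edgeR test 39.3% of all genes were higher and 15.6% lower. After subtraction of the background 2 of the 11 were called higher, where 1.10% of all genes tested were called in either direction. In that test edgeR called 1 of the 12 cartilage markers above the limit lower, with 11 of the 12 at negative log2 fold changes. Of the 8 smooth muscle markers above the limit 1 was called higher, with all 8 at positive log2 fold changes. The part of fibroblast and perichondrium cells in the values of mesenchymal ligands such as Fgf7 and Fgf10 was not tested. The deleted genes followed their labels. Bmp4 fell by 2.03 ± 0.20 (SE) on the log2 scale in the sorted mutants (edgeR adjusted p = 0.00330), and Wls was at 65.8 CPM in the mutant trachea against 149.6 ± 5.39 CPM (SD, n = 2) in its controls.

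In the sorted cells, the 4 ligand genes read higher in the Bmp4 mutants than in the controls and 2 receptor genes, Fgfr2 and Fgfr3, read lower. By edgeR's quasi-likelihood test at an adjusted p under 0.05 over all genes, 4 of the 10 FGF genes were higher and 2 lower. In the same test 39.3% of all 21665 genes were higher, 15.6% lower and 54.9% called in either direction, so the share among the FGF genes is near the background share. With the even background subtracted and genes below its limit left out, 6 of the 10 genes could be tested and edgeR called 0 of them, with 2 of the 6 at an unadjusted p under 0.05. In that test 1.10% of 9678 genes were called. The subtracted comparison also moved the median of those genes from -0.39 to -0.01 on the log2 scale. Values below are CPM scaled by edgeR's TMM factors unless said otherwise, and log2 fold changes are mutant minus control with their SE.

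**Figure D1:**
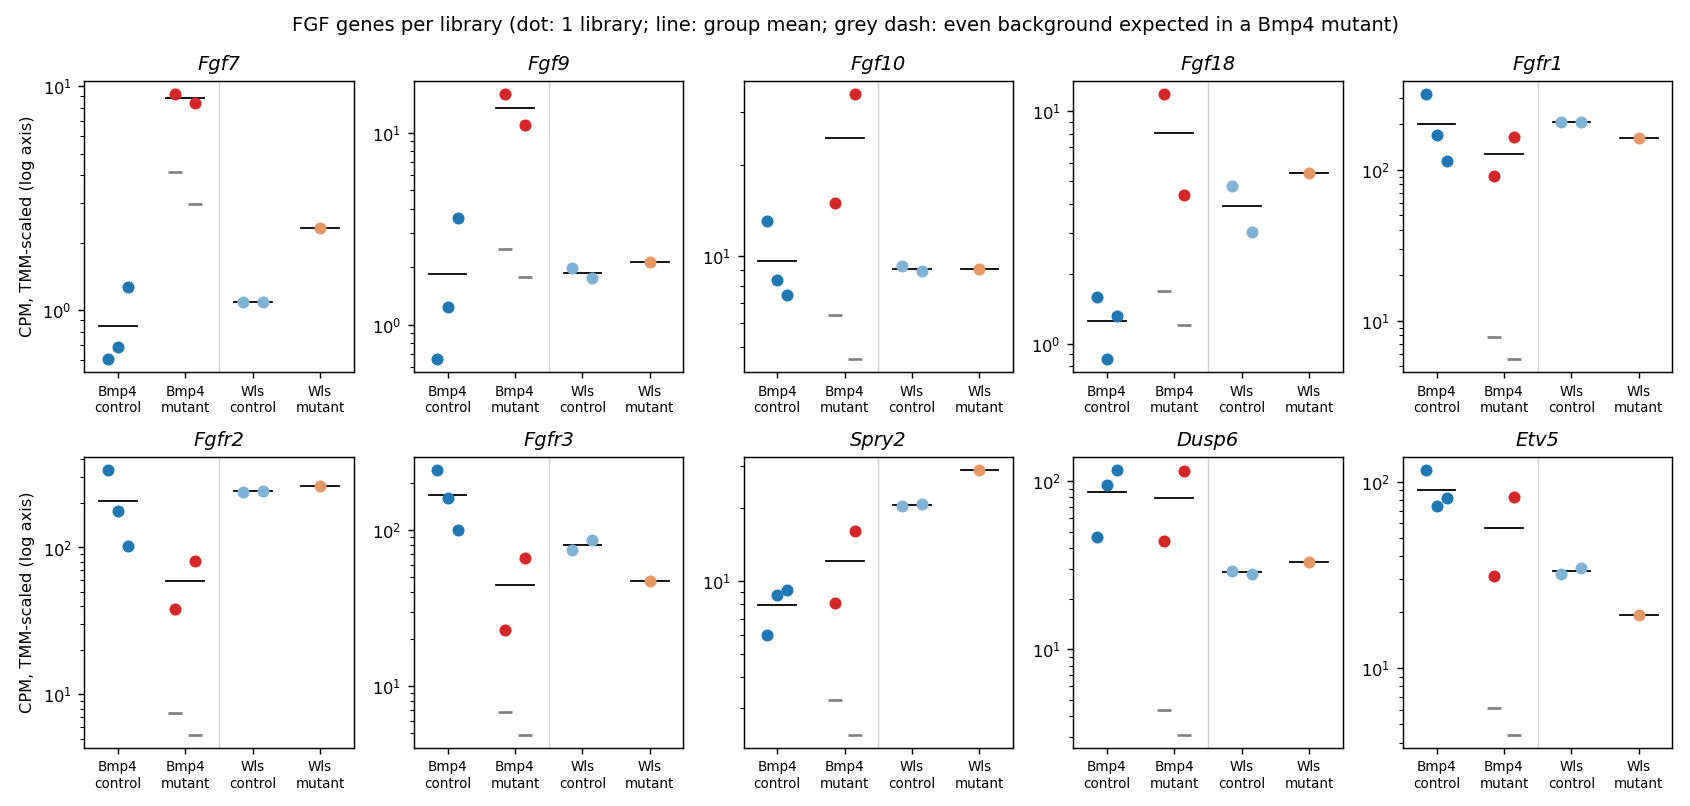
Expression of the 10 FGF genes in each library, in TMM-scaled CPM on log axes that differ between panels, with 1 dot per library, a line at each group mean and a grey dash at the even background expected for the gene in each Bmp4 mutant. Ligand dots of the Bmp4 mutants lie at 2.23 to 7.53 times the dash, the 2 dots of Fgfr2 and of Fgfr3 lie below all 3 controls, and in the tracheas Fgfr3 and Etv5 of the Wls mutant lie below both controls.

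Fgf7, a mesenchymal growth factor for epithelium, was at 9.20 and 8.44 CPM in Bmp4 mutants 1 and 2 and at 0.605, 0.684 and 1.27 CPM in controls 1 to 3. Both mutants lay above every control, by 3.37 ± 0.55 on the log2 scale (edgeR adjusted p = 0.00332). The mutant counts were 126 and 149 reads, of which the even background would give 44.9% and 35.2%. Those counts were 2.23 and 2.84 times the expected background, inside the spread of silent genes. With the background removed 5.07 and 5.47 CPM remained, and the gene was below the limit in the subtracted test (4.36 CPM over all sorted libraries against a limit of 11.6).

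Fgf9, a ligand that airway epithelium and mesothelium send to the mesenchyme, was at 15.9 and 10.9 CPM in the mutants and at 0.664, 1.24 and 3.62 CPM in the controls. The groups did not overlap, and the difference was 2.86 ± 0.72 (edgeR adjusted p = 0.0131). It was no longer called without mutant 1 (2.54, edgeR adjusted p = 0.0918) or without mutant 2 (3.11, edgeR adjusted p = 0.0518), and it was 3.82 without control 3. The 217 and 193 mutant counts stood 6.43 and 6.17 times above the expected background, so most of the signal lay over it when the RefSeq exon length of 1.593 kb was used. With the longer GENCODE basic exon length of 4.492 kb the ratios were 3.42 and 3.28. Its mean of 6.90 CPM lay just under the limit of 6.94, so the gene was not tested after subtraction. The airway epithelium markers had a sum of 189 and 110 CPM in mutants against 34.3 to 50.7 CPM, with 8 of 14 tested markers higher. The mesothelium markers had a sum of 274 and 77.9 CPM against 18.5 to 103 CPM, with 2 of 5 higher, beside 39.3% of all genes. After subtraction edgeR called none of the 3 epithelium and 3 mesothelium markers above the limit. The part of these cells in the Fgf9 values was not tested.

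Fgf10, the ligand that directs branching of the lung buds, was at 14.97 and 34.4 CPM in the mutants and at 13.1, 8.36 and 7.42 CPM in the controls. The groups did not overlap, but mutant 1 lay close to control 1 and mutant 2 carried most of the difference of 1.36 ± 0.42 (edgeR adjusted p = 0.0278). Without mutant 2 it was 0.64, with an edgeR adjusted p of 0.266, and the call was also lost without control 2 (0.094), without control 3 (0.068) and with limma-voom (0.061). Background made up 42.5% of the 205 counts of mutant 1 and 13.3% of the 608 counts of mutant 2. With it removed, mutant 1 was at 8.61 CPM, inside the range of the controls, and mutant 2 at 29.9 CPM, above it. The mean of 16.4 CPM was under the limit of 17.9. With GENCODE basic exon lengths the gene was above the limit, at 1.57 after subtraction (edgeR adjusted p = 0.109).

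Fgf18, a ligand that acts on cartilage and its surrounding layer, was at 11.8 and 4.36 CPM in the mutants and at 1.58, 0.860 and 1.31 CPM in the controls. Both mutants were above all controls, by 2.69 ± 0.62 (edgeR adjusted p = 0.00912), and mutant 1 was the highest library. Without mutant 1 the difference was 1.78 and was no longer called (edgeR adjusted p = 0.127). The 162 and 77 counts were 7.04 and 3.61 times the expected background, which left 10.2 and 3.15 CPM, both still above the highest control. The mean of 4.20 CPM was under the limit of 4.73, so the gene was left out of the subtracted test. With GENCODE basic exon lengths the counts were 9.67 and 4.96 times the background, and the gene was above the limit and did not pass (2.98, edgeR adjusted p = 0.0558).

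**Figure D2:**
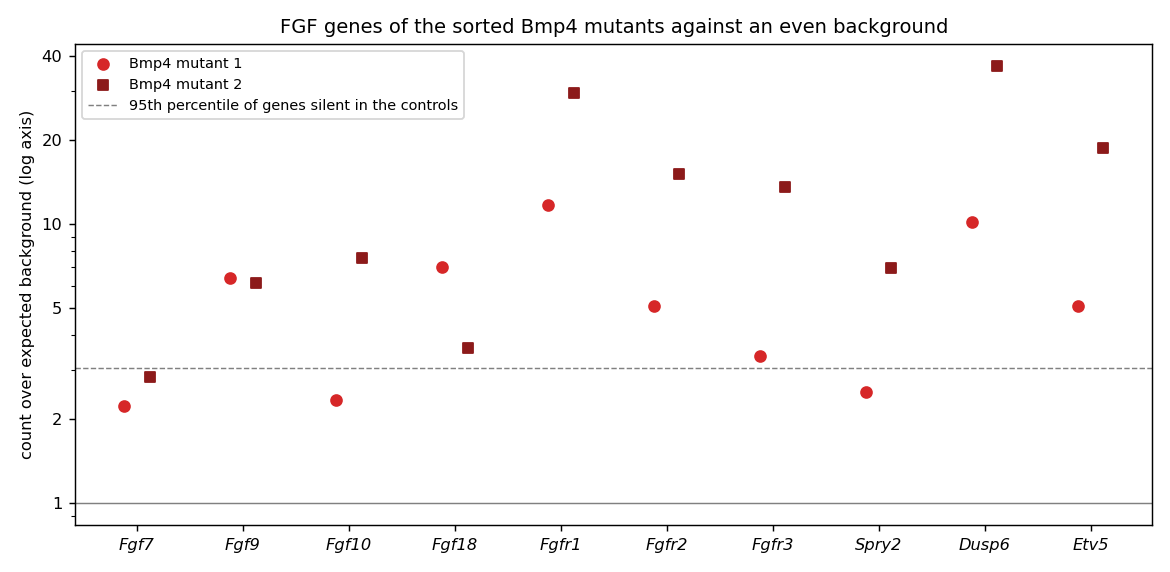
Counts of the 10 FGF genes in the Bmp4 mutants as multiples of the even background expected for their exon length, on a log axis, with a circle for mutant 1 and a square for mutant 2. The dashed line at 3.05 is the 95th percentile of genes silent in the controls, and both mutants are under it for Fgf7 alone, while Fgfr1 and Dusp6 lie highest.

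Among the receptors, Fgfr2 and Fgfr3 fell in the sorted mutants and Fgfr1 did not pass the test. Fgfr2, the receptor of FGF7 and FGF10 in its epithelial splice form, was at 37.9 and 80.8 CPM in the mutants and at 337, 178 and 102 CPM in controls 1 to 3. Every mutant was below every control, although the controls themselves spanned a wide range. The difference was -1.79 ± 0.54 (edgeR adjusted p = 0.0259). After subtraction it was -1.44 (edgeR adjusted p = 0.207), and without mutant 1 it was -1.36 (edgeR adjusted p = 0.162), so it no longer passed in either. It was also lost without mutant 2 (-2.44, edgeR adjusted p = 0.0561), with library totals (adjusted p = 0.051) and with limma-voom (adjusted p = 0.098).

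Fgfr3, a receptor that restrains chondrocyte growth in the skeleton, was at 22.9 and 66.6 CPM in the mutants and at 244, 160 and 100 CPM in the controls. Here too every mutant was below every control. The difference was -1.91 ± 0.52 (edgeR adjusted p = 0.0186). It was -1.61 after subtraction (edgeR adjusted p = 0.186), -1.34 without mutant 1 (edgeR adjusted p = 0.0896), -2.88 without mutant 2 (edgeR adjusted p = 0.0295) and -1.94 with limma-voom (adjusted p = 0.0579). Background accounted for 29.8% of the 313 counts of mutant 1 and 7.34% of the 1176 counts of mutant 2. The 5 libraries fell in the same order for Fgfr2, for Fgfr3 and for the summed cartilage markers, from control 1 through controls 2 and 3 to mutants 2 and 1. In these sorted bulk libraries fewer cells of a type and less RNA per cell cannot be told apart, and the part of the cartilage content in the receptor values was not tested.

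Fgfr1, the receptor most widely expressed in mesenchyme, was at 90.9 and 165 CPM in the mutants and at 317, 170 and 115 CPM in the controls. The groups overlapped, with mutant 2 near control 2. The difference of -0.65 ± 0.44 did not pass (edgeR adjusted p = 0.244), and it shrank to -0.20 after subtraction. Fgfr4, outside the 10 genes but the remaining member of the receptor family, was at 15.05 and 6.40 CPM in the mutants and at 37.6, 22.7 and 16.2 CPM in the controls. Its difference of -1.25 ± 0.48 did not pass either (edgeR adjusted p = 0.0608).

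Ratios within a library do not move with its scaling. Per kb of exon, Fgfr1 made up 50.7% and 49.1% of the counts of the 4 receptors in the mutants and 31.5%, 29.6% and 31.8% in controls 1 to 3. The controls were close to each other although the levels of the single genes differed widely between them, and both mutants lay apart from them. Fgfr2 held 22.1% and 25.3% in the mutants against 35.1%, 32.5% and 29.6%, and Fgfr3 14.6% and 22.7% against 27.7%, 31.9% and 31.8%. Fgfr4 held 12.7% in mutant 1 and 2.89% in mutant 2, on both sides of the 5.66% to 6.80% of the controls. With the background removed Fgfr1 was at 56.0% and 50.9% and the order of the receptors in the mutants stayed the same.

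**Figure D3:**
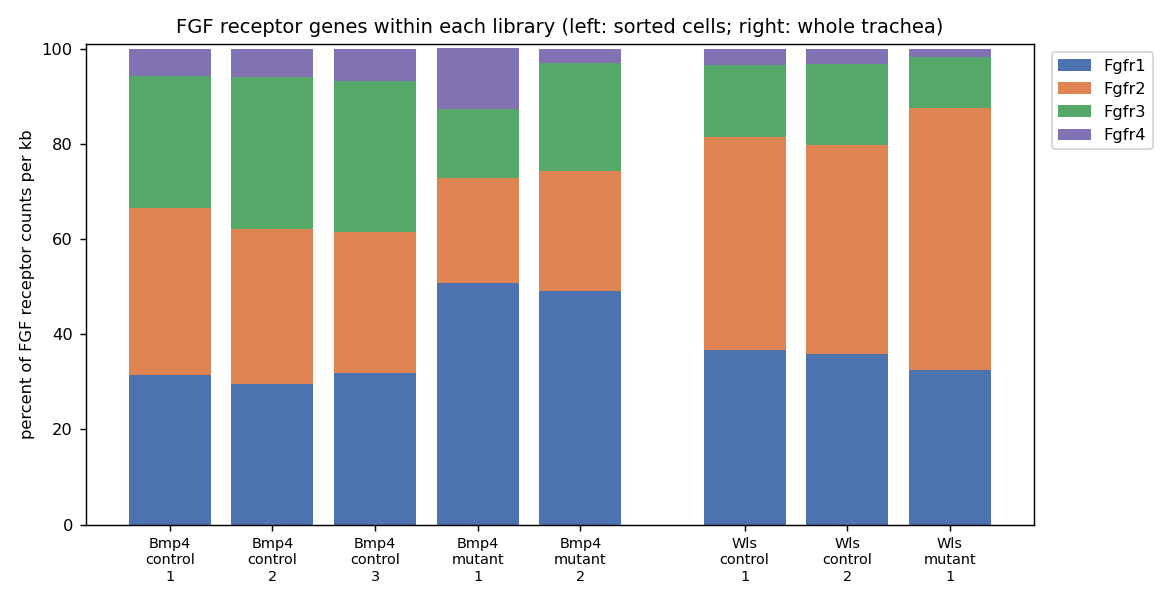
Share of each FGF receptor gene in the counts per kb of all 4, in percent, with 1 stacked bar per library, sorted cells on the left and whole tracheas on the right. Fgfr1 fills 49.1% or more of both Bmp4 mutant bars and at most 31.8% of the sorted control bars, and in the tracheas the Fgfr2 part is larger in the Wls mutant (55%) than in its controls.

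Per kb of exon, the ratio of Fgfr2 to Fgfr1 was 0.436 and 0.514 in the mutants and 1.11, 1.10 and 0.931 in the controls. The ratio of Fgfr3 to Fgfr1 was 0.287 and 0.462 against 0.878, 1.08 and 0.998. For both ratios the mutants lay below every control. Over the libraries each gave a two-sided exact permutation p of 0.2, the smallest that 2 against 3 libraries allow, and 0.25 after adjustment over the 5 ratios tested. With the background removed the ratios of the mutants were 0.384 and 0.497 for Fgfr2 and 0.221 and 0.443 for Fgfr3, so the gap to the controls did not close.

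None of the 3 feedback genes passed the test in the sorted cells. Spry2, an inhibitor of signalling below receptor tyrosine kinases, was at 8.11 and 16.1 CPM in the mutants and at 5.996, 8.78 and 9.18 CPM in the controls. Mutant 1 lay among the controls and mutant 2 above them, and the difference was 0.60 ± 0.41 (edgeR adjusted p = 0.246). Background made up 39.8% of the 111 counts of mutant 1 and 14.4% of the 284 counts of mutant 2. With it removed mutant 1 was at 4.88 CPM, below all controls, and mutant 2 at 13.8 CPM, above them. After subtraction the difference of Spry2 was 0.73 (edgeR adjusted p = 0.412). Dusp6, a phosphatase of ERK, was at 44.0 and 115 CPM in the mutants and at 46.5, 94.99 and 117 CPM in the controls. Its groups overlapped throughout, and the difference of -0.12 ± 0.47 (edgeR adjusted p = 0.849) changed sign to 0.31 after subtraction and to 0.13 with library totals. Etv5, an ETS-family transcription factor, was at 31.2 and 82.6 CPM in the mutants and at 116, 74.1 and 82.4 CPM in the controls. Mutant 2 lay inside the range of the controls and mutant 1 below it, with a difference of -0.67 ± 0.40 (edgeR adjusted p = 0.184). Without mutant 2 it was -1.54 and passed (edgeR adjusted p = 0.0290), and without mutant 1 it was -0.15.

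Ratios between the feedback genes do not depend on scaling either. Per kb of exon, the ratio of Etv5 to Spry2 was 2.02 and 2.70 in the mutants, and 10.1, 4.43 and 4.71 in the controls. Both mutants were below all controls (two-sided exact permutation p = 0.2, the smallest possible, adjusted p = 0.25). With the background removed the mutants were at 2.69 and 2.98, still below all controls. The ratio of Etv5 to Dusp6 was 0.498 and 0.507 in the mutants and 1.75, 0.548 and 0.497 in the controls, so the groups overlapped (exact permutation p = 0.6), and control 1 alone was high. With the background removed the mutants were at 0.443 and 0.493, just below control 3, which was not tested.

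Groups did not overlap for 6 of the 10 genes in the sorted cells, beside 73.9% of all genes tested. The log2 fold changes of the 10 genes had a median of 0.24 and ran from -1.91 to 3.37, beside a median of 0.53 over all genes.

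**Figure D4:**
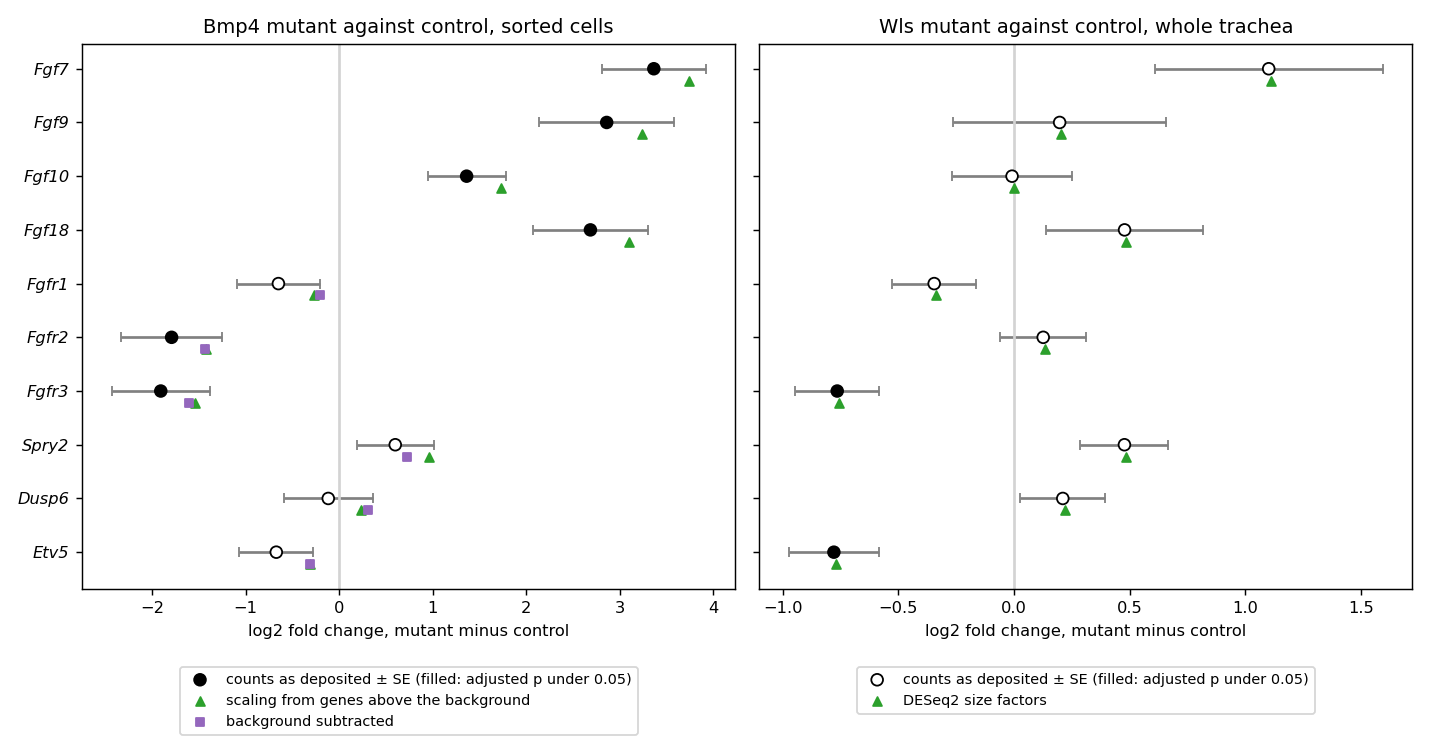
Log2 fold changes of the 10 FGF genes, mutant minus control, with circles and SE bars for the deposited counts (filled where the edgeR adjusted p is under 0.05), triangles for another scaling and, on the left, squares for subtracted counts of the 6 genes above the limit. Filled circles on the left are the 4 ligands above 0 and Fgfr2 and Fgfr3 below it, and on the right Fgfr3 and Etv5 below 0, and the horizontal scales of the panels differ.

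In the whole tracheas, deletion of Wls went with lower Fgfr3 and Etv5 and with no called change in any ligand gene of the 10. By edgeR 2 of the 10 genes were lower, where 2.39% of all 15815 genes were lower and 4.27% were called in either direction. No member was called higher, where 1.88% of all genes were. At an unadjusted p under 0.05 Fgf7 and Spry2 were also higher, and DESeq2 called neither. The fit had 1 mutant library and 1 residual degree of freedom and assumed that the mutant varies like the controls. A rule of size without a test, which asks for a difference of at least 1 in log2 CPM and more than the controls differ at log2 CPM averaging 3 or above, passed 1.06% of the 10897 genes of that level. Of the 10 FGF genes 7 had that level and 0 passed. Fgf7, Fgf9 and Fgf18 were too low to be judged by it.

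Fgfr3 was at 47.4 CPM in the Wls mutant and at 74.5 and 86.5 CPM in the controls. The mutant lay below both by more than they differed, at -0.76 ± 0.18 (edgeR adjusted p = 0.00198), and DESeq2 also called it (adjusted p = 0.0275). Etv5 was at 19.4 CPM in the mutant and at 32.1 and 34.5 CPM in the controls. The mutant again lay below both, at -0.78 ± 0.19 (edgeR adjusted p = 0.00433), but DESeq2 gave an adjusted p of 0.0865. Cartilage markers fell with them, to 764 CPM in the mutant against 2057 and 1811 CPM, with 10 of 14 tested markers lower. Airway epithelium markers summed to 1402 CPM in the mutant against 1014 and 880 CPM, with 8 of 16 markers higher and 2 lower. Smooth muscle markers summed to 2905 CPM against 2159 and 1889 CPM, with 3 of 11 higher. Skeletal muscle markers had 6 of 11 higher, with a sum of 562 CPM in the mutant against 568 and 437 CPM, and endothelial markers 2 of 10 lower, with a sum of 402 CPM against 514 and 573 CPM. By edgeR 1.88% of all genes were higher and 2.39% lower. The part of these marker shifts, as shifts in cell content, in the FGF genes was not tested.

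Fgfr1 and Fgfr2 did not pass. Fgfr1 was at 163 CPM in the mutant and at 206 and 208 CPM in the controls, a difference of -0.34 ± 0.18 that did not pass (edgeR adjusted p = 0.386). Fgfr2 was at 263 CPM in the mutant and at 240 and 242 CPM in the controls, close together at 0.13 ± 0.19 (edgeR adjusted p = 0.847). As a share of the 4 receptors per kb, Fgfr2 held 55% in the mutant against 44.7% and 43.8%, and Fgfr3 10.8% against 15.2% and 17.1%. Fgfr1 held 32.5% against 36.7% and 35.9%. The mutant share of each lay outside the pair of controls, a difference that was not tested. The ratio of Fgfr2 to Fgfr1 was 1.69 in the mutant and 1.22 in both controls.

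The other 2 feedback genes stood on the opposite side from Etv5. Spry2 was at 28.8 CPM in the mutant and at 20.4 and 20.9 CPM in the controls, with a difference of 0.48 ± 0.19 that did not pass (edgeR adjusted p = 0.164). Dusp6 was at 33.2 CPM in the mutant and at 29.1 and 28.1 CPM in the controls, at 0.21 ± 0.18 (edgeR adjusted p = 0.680). Per kb of exon, the ratio of Etv5 to Spry2 was 0.354 in the mutant and 0.825 and 0.867 in the controls. The ratio of Etv5 to Dusp6 was 0.412 in the mutant against 0.775 and 0.864. Both ratios were lower in the mutant than in either control, a difference that was not tested.

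Ligand genes were low in the tracheas. Fgf10 was at 9.06 CPM in the mutant and at 9.26 and 8.95 CPM in the controls, inside their range (difference -0.01 ± 0.26, edgeR adjusted p = 0.995). Fgf9 was at 2.13 CPM against 1.98 and 1.74 CPM (0.20 ± 0.46, edgeR adjusted p = 0.912). Fgf18 was at 5.41 CPM against 4.78 and 3.02 CPM, a gap to the upper control smaller than that between the controls (0.48 ± 0.34, edgeR adjusted p = 0.579). Fgf7 rested on 57 counts in the mutant and 29 and 35 in the controls, or 2.34 CPM against 1.08 and 1.09 CPM. Its difference of 1.10 ± 0.49 was the widest of the 10 genes and did not pass (edgeR adjusted p = 0.254). Mutant and controls did not overlap for 9 of the 10 genes, all but Fgf10, beside 74.5% of all genes tested.

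Levels of different genes were compared per kb of exon, as descriptions within each kind of library. In the sorted controls the receptors led, with Fgfr2 at 42.8 ± 24.9, Fgfr1 at 39.9 ± 20.8 and Fgfr3 at 38.2 ± 16.4 CPM per kb (SD, n = 3). The ranges of these 3 overlapped with each other and with those of Dusp6 at 30.8 ± 12.9 and Etv5 at 22.8 ± 5.56. Within each control, however, Etv5 was below all 3 receptors, at 29.1, 18.6 and 20.7 CPM per kb in controls 1 to 3. The gap was small in control 3, where Fgfr2 was at 21.25 CPM per kb. Spry2 followed well below at 3.83 ± 0.832 CPM per kb, and its range touched that of Fgf10 at 2.34 ± 0.733. Fgf9 at 1.15 ± 0.983 and Fgf18 at 1.15 ± 0.336 were alike in mean, and Fgf7 was lowest at 0.319 ± 0.135. In the control tracheas Fgfr2 was at 50.1 ± 0.310 CPM per kb (SD, n = 2), above Fgfr1 at 41.1 ± 0.234, and Fgfr3 was at 18.3 ± 1.93. Dusp6 at 10.2 ± 0.252 and Spry2 at 9.91 ± 0.167 were close neighbours with Etv5 below them at 8.38 ± 0.437. The ligands ran from Fgf18 at 3.59 ± 1.15 through Fgf10 at 2.21 ± 0.0530 and Fgf9 at 1.17 ± 0.106 to Fgf7 at 0.406 ± 0.00133. The ligand Fgf7 was thus the lowest of the 10 in both kinds of control, which were made with different kits and were not tested against each other.

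The rest of the pathway was read from 94 further genes in 5 lists. The first list held the other 18 Fgf genes, among them Fgf11, Fgf12, Fgf13 and Fgf14, which code for intracellular FGF proteins and not for secreted ligands. All 18 were tested in the sorted cells and 12 were called higher, beside 39.3% of all genes. Their counts in the mutants had a median of 0.992 and 1.14 times the expected background, which is its own level. Fgf4, which patterns limb buds, had 84 and 71 counts in the mutants, 1.31 and 1.19 times the background, and 0 counts in all 3 controls. Fgf23, a hormone of bone, had 140 and 107 counts, 3.64 and 3.01 times the background, and again 0 counts in the controls. Fgf16 had 76 and 104 counts, or 2.18 and 3.22 times the background, and 18 counts over the 3 controls together. Fgf2, a widely used mesenchymal mitogen, had 45 and 53 counts, which is 0.356 and 0.452 times the background. Only 1 of the 18, Fgf13, was above the limit. In the tracheas 8 of the 18 passed the filter on low counts, with a median log2 fold change of -0.15 beside -0.01 over all genes, and Fgf14 alone was higher. Fgf14, which belongs to the intracellular FGF proteins of neurons, was at 5.70 CPM in the Wls mutant and at 1.49 and 1.80 CPM in the controls (1.78 ± 0.38, edgeR adjusted p = 0.000456).

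Of the 10 other receptors and coreceptors 3 were called higher and 1 lower in the sorted cells, beside 39.3% and 15.6% of all genes. The higher ones were Kl and Klb, coreceptors of the hormone-like FGFs, and Fgfbp1, a carrier of secreted FGFs. They had 192 and 104, 116 and 57, and 94 and 98 counts in mutants 1 and 2, which lie 0.820 to 4.07 times the expected background, and 12, 36 and 0 counts over the controls. Fgfrl1, a receptor-like protein without a kinase domain, was at 17.1 and 24.6 CPM in the mutants and at 70.7, 51.0 and 50.7 CPM in the controls. Both mutants lay far below (-1.46 ± 0.24, edgeR adjusted p = 0.00332), and after subtraction the difference was -1.20 and did not pass (edgeR adjusted p = 0.0782). In the tracheas 3 of the 9 tested were lower. Fgfr4 was at 5.53 CPM in the mutant against 12.4 and 12.2 CPM (-1.15 ± 0.27, edgeR adjusted p = 0.00155) and also passed the rule of size. Flrt1 and Flrt2, membrane proteins that bind FGF receptors, were lower by -1.02 ± 0.30 and -0.73 ± 0.21 (edgeR adjusted p = 0.0288 and 0.0169).

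Among 20 other feedback and target genes 1 was higher and 4 were lower in the sorted cells, beside 39.3% and 15.6% of all genes, with a median of 0.18. Spry4, a relative of Spry2, was at 15.9 and 21.5 CPM in the mutants and at 6.29, 4.43 and 9.35 CPM in the controls (1.48 ± 0.39, edgeR adjusted p = 0.0154), and it was below the background limit. Ccnd1, a cyclin of the G1 phase, and Dusp14 fell by 1.55 ± 0.41 and 1.53 ± 0.26 on the log2 scale (edgeR adjusted p = 0.0159 and 0.00339), and Phlda1 by 0.69 ± 0.25 (edgeR adjusted p = 0.0489). After subtraction none of the 8 genes of the list above the limit was called by edgeR. Spry1, Dusp4, Etv1, Etv4 and Il17rd did not pass, with differences of 0.17, 0.20, 0.07, 0.78 and 0.48. Etv4, a relative of Etv5, had 44 and 30 counts in the mutants, fewer than the background alone would give. In the tracheas Spry1 rose by 0.63 ± 0.19 (edgeR adjusted p = 0.0284), from 21.0 and 19.0 CPM in the controls to 31.0 CPM. Phlda1 fell by 0.65 ± 0.19 (edgeR adjusted p = 0.0191), from 48.7 and 49.4 CPM to 31.2 CPM, and the other 17 of 19 tested did not pass. Spry4, Dusp4, Etv1, Etv4 and Il17rd were among these, at 0.45, -0.53, 0.20, -0.08 and 0.22.

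Of 22 genes that relay the signal from receptor to ERK, 3 were lower in the sorted cells, beside 15.6% of all genes. They were the phosphatase gene Ptpn11 and the adaptor genes Frs2 and Gab1, at -0.85 ± 0.16, -0.50 ± 0.17 and -0.42 ± 0.15 (edgeR adjusted p = 0.00392, 0.0408 and 0.0436), and the list had a median of -0.25. After subtraction edgeR called none of the 15 above the limit, Gab1 was at 0.04 and the median was 0.04. In the tracheas the ubiquitin ligase gene Cbl alone was lower (-0.81 ± 0.22, edgeR adjusted p = 0.0119), with a median of -0.10.

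Heparan sulfate genes make the sugar chains on which FGFs meet their receptors. Of 24 such genes 2 were higher and 9 lower in the sorted cells, with a median of -0.52, beside 39.3% and 15.6% of all genes. Genes above the background limit had a median of -0.39 in the same test. After subtraction the list had a median of -0.05, and of the 21 genes above the limit 1 was called, in the higher direction. Hs3st3a1, a sulfotransferase, was at 4.53 and 7.93 CPM in the mutants and at 46.9, 15.5 and 18.2 CPM in the controls (-2.10 ± 0.56, edgeR adjusted p = 0.0169). Its 62 counts in mutant 1 were fewer than the expected background of 83.4. Hs6st1 and the syndecan gene Sdc2 were lower by -0.88 ± 0.30 and -0.87 ± 0.21, and Hpse, which cleaves the chains, was higher by 1.53 ± 0.40. The glypican gene Gpc4 was at 41.0 and 39.0 CPM in the mutants and at 21.0, 19.5 and 19.5 CPM in the controls. Its groups lay well apart, and it was the 1 gene of all the FGF pathway lists still called after subtraction (1.41 ± 0.17, edgeR adjusted p = 0.0464). Subtraction without mutant 1, without control 1 or without control 3 called 0 genes of the whole table by edgeR, with 1429 to 2266 genes at an unadjusted p under 0.05, and without control 2 it called 1 gene, which was lower, so the Gpc4 call is lost in each. In the tracheas Hs3st3a1 was lower as well, at 3.40 CPM against 9.45 and 6.75 CPM (-1.25 ± 0.32, edgeR adjusted p = 0.00667). Hs3st3b1 was lower by -1.15 ± 0.25 (edgeR adjusted p = 0.000601), and the syndecan gene Sdc4 was higher by 0.65 ± 0.18 (edgeR adjusted p = 0.0131). Gpc4 was at 26.5 CPM in the Wls mutant and at 26.9 and 24.7 CPM in the controls, inside their range.

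Bmp4 itself was lower in the Wls mutant trachea, by -0.69 ± 0.19 (edgeR adjusted p = 0.0108). The Wls and Bmp4 comparisons share no library. Fgfr3 was the 1 gene of the 10 called lower in both, where 2.39% and 15.6% of all genes were lower. The share of all genes lower in both was not computed. In the sorted cells the Fgfr3 call was lost after subtraction (edgeR adjusted p = 0.186) and with limma-voom (adjusted p = 0.0579). In the tracheas Fgfr3 did not pass the rule of size.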

How the data were processed

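RNA of whole tracheas and of sorted tracheal cells was sequenced, and the authors deposited raw counts per gene symbol in 1 table for each. Per the submitters' processing notes Bowtie2, Cufflinks, DESeq and the build mm10 were used, and Trim Galore for the sorted cells. Not given in the sources used here were versions, the counting program, its strand setting and the annotation, so reads of overlapping or antisense genes cannot be told apart. Per the labels' protocols the sorted cells were amplified with SMART-Seq v4 and the tracheas with Ovation v2, so libraries were compared within a table only.

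The deposited counts (12964287 to 55492747 per library) were tested on each whole table (edgeR 4.0.16 under R 4.3.3) after a filter on low counts and TMM scaling, by the quasi-likelihood test with Benjamini-Hochberg adjustment at 0.05. SE is the absolute log2 fold change over the root of F. limma 3.58.1, DESeq2 1.42.0 and other scalings were alternatives, and scripts were tested on simulated data. Without molecular identifiers, reads are not independent molecules. The even background was estimated from 4252 genes without a count in the sorted controls, with exon lengths of GENCODE M21 transcripts paired with RefSeq (97.0% of symbols). The subtracted test removed it per kb in the mutants. Shares and ratios use deposited counts per kb of exon. Pairs of libraries within a group had a chi-square per degree of freedom of 23.4 to 183.7 across genes, far over counting noise, and none was merged.

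The 10 genes and all lists were chosen with earlier results of these data known. All 10 passed the filter in both tables. From each further list up to 3 called genes in each direction were named by the size of their change, with a mean of at least 5 CPM in 1 group, plus Fgfr4, Fgfrl1, Fgf2, Spry1, Spry4, Etv4, Etv1, Dusp4 and Il17rd. Fgf13 and Gpc4 in the tracheas were named after their values were seen. The Cre driver of the Bmp4 mutants is not reported here.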

Additional observations from a re-analysis of the deposited data

How the results depend on the processing

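In the sorted cells 11888 genes were called (8507 higher, 3381 lower). The count was 106 with the background subtracted, 427 with subtraction by GENCODE basic exon lengths, 4 with the replicate number as a block, 7829 without Bmp4 mutant 2 and 3595 without Bmp4 mutant 1, and 3595 to 10478 over the fits that leave out 1 library. Subtraction with 1 library left out gave 0 to 187. Scaling from genes above the background gave 9851 higher and 810 lower, with a median of 0.91, and library totals 9141 higher and 1245 lower. Subtraction removes genes as well as counts, and the cause of the other shifts was not tested. The basic lengths, the globin genes left out (11943 called) and subtraction with a library left out were chosen after seeing the data.

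Of the FGF genes 6 were called. The count was 3 with limma-voom, 0 with the replicate block, 0 with either subtraction, 2 to 6 with 1 library left out and 0 with subtraction and a library left out. At an unadjusted p under 0.05 there were 5 with the block. Same-numbered mutants and controls had correlations of -0.174 and -0.106. With 2 mutants, the correlations of a control with them are equal in size and opposite in sign. This check therefore cannot decide whether the shared numbers pair libraries. Fgf9 was lost without mutant 1 (edgeR adjusted p = 0.092) and without mutant 2 (0.052).

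Dusp6 turned to 0.13 with library totals, 0.39 without mutant 1 (range with 1 library left out -0.96 to 0.39), 0.17 without control 3, 0.10 with the block, 0.31 after subtraction, 0.27 with basic lengths and 0.24 with scaling from genes above the background. With subtraction and 1 library left out it took values of 0.0079, 0.39, 0.60 and 0.82 and, without mutant 2, -0.47. Under the same settings Fgfr1 turned to 0.13 and 0.27, Etv5 to 0.24 and Spry2 to -0.063. None of these passed a test. On the deposited counts the other 9 genes kept their direction under every alternative run, and the call of Fgf7 was lost with the block alone. The mean Fgfr1 share of the mutants went from 49.9% to 53.4% after subtraction.

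In the tracheas 676 genes were called, 437 with library totals and 268 with DESeq2. Of the FGF genes 2 were called, and 1 with DESeq2. Fgf10 ran from -0.033 to 0.027 with 1 control left out. The shallow Bmp4 mutants and the 1 Wls mutant limit what low genes such as Fgf7 can show.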
